A study of Mus musculus with 6 samples.

Results

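Ebf1, Ebf2 and Ebf3, the early B-cell factors, were followed here in wild type mouse stembryos, pseudo-embryos grown from aggregated embryonic stem cells. They are 3 of the 25595 genes of a single-cell count table with 26968 cells. The members were chosen from their measured levels by fate, time and library in these data, so those levels are given as a description, with no test. Their relative Ebf4 is described only as a member of a gene list. The stembryos (genotype wt, mES cells of a 129/SVEV line) had all received a pulse of the Wnt agonist Chiron, and the labels give no mutation or other treatment for any group. Whole stembryos were collected 96 h or 120 h after aggregation, with 2 libraries at each time. At 120 h another collection was cut, and its anterior and posterior parts gave 1 library apiece, which made 6 libraries in all. Each library pooled many stembryos, stembryos that had not elongated were left out at 120 h but not at 96 h, and the cultures lack extraembryonic tissues. Levels below are unique molecular identifiers (UMIs, single captured RNA molecules) of a gene per 1000000 UMIs of the same group of cells, written CPM.

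Early B-cell factors are transcription factors with a DNA-binding domain of their own kind and a helix-loop-helix region through which they pair. They were named for Ebf1, which B lymphocytes need in order to form, and they also act in neurons that leave the cell cycle, in fat and in connective tissue. In the trunk of vertebrate embryos, cells of the presomitic mesoderm (PSM) become ready to segment at the determination front and then form somites, the blocks that give rise to vertebrae, trunk muscle and dermis.

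In the mm10 genome (GENCODE M21), Ebf1 (ENSMUSG00000057098) lies at chr11:44617317-45008091 on the plus strand, Ebf2 (ENSMUSG00000022053) at chr14:67233292-67430918 on the plus strand, and Ebf3 (ENSMUSG00000010476) at chr7:137193673-137314445 on the minus strand. The genes that overlap them lie on the opposite strand. The study's methods give default parameters for the counting in Cell Ranger and name no strand setting. Gm10578, antisense to Ebf3, was the most abundant of those in the table, with 113 UMIs in all. Promoters are shown because at 120 h all members were read mainly in front and somite cells. Ebf1 was highest in another of these fates than Ebf2 and Ebf3. Of the members, 2 had a promoter in the RefSeq table used (GRCm38.p6, 250 bases before to 50 after a start), and Ebf2 had no entry there. Ebf1 had a pair of windows, at chr11:44617850-44618149 and chr11:44619978-44620277, both on the plus strand. Ebf3 had 1, at chr7:137314396-137314695 on the minus strand. The downstream window of Ebf1 and that of Ebf3 are printed from 5′ to 3′, with the motif matches in capitals:
Ebf1: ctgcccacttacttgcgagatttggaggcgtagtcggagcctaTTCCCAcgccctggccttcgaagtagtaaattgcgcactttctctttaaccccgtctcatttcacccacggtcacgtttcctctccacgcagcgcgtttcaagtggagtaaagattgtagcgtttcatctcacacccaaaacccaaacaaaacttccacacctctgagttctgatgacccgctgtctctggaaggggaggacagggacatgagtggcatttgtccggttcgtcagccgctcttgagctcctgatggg
Ebf3: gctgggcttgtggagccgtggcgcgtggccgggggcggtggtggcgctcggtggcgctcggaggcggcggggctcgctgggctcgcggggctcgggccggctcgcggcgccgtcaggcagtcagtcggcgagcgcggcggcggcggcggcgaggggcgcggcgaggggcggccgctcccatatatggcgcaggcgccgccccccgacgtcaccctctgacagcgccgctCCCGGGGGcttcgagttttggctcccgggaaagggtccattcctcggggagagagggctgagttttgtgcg

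The capitals in Ebf1 mark a match to the RBPJ motif TGGGAA (RBPJ is the DNA-binding partner of Notch), read on the opposite strand at position -207 from the start. This motif was in 25.6% of 32851 mouse promoters of the same length. The capitals in Ebf3 mark a match to CCCNNGGG, the core of the motif that early B-cell factors themselves bind, at position -21. It was in 13.7% of promoters. The full palindrome, this core with a T before and an A after it, was in 0.904% of promoters and matched none of the 3 windows. Nor did the T-box motif AGGTGTGA (1.28% of promoters), the TATA box TATAAA (13.6%) or the CCAAT box (37.4%). Both strands were searched, and a match is a description of letters only. The windows differed in composition. The Ebf3 window held 77% G or C and 46 CG steps, above 97.6% and 98.4% of promoters. The downstream Ebf1 window held 53% G or C and 17 CG steps, and the upstream one 36.7% and 9.

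Each of the 6 libraries had between 2649 and 7887 cells, and the UMI totals ran from 24303317 to 117580506, with medians of 8723 to 22811 UMIs per cell. Replicate 1 of both whole groups was 1 batch (V3 chemistry), replicate 2 of both another (V3.1), and the cut parts one more (V3), so the cut and the batch cannot be told apart. There were 75 cell barcodes found in more than 1 library. Cells carried 12 fates in the deposited annotation. Against marker lists of 10 genes, Somite A was above 2 times the other cells for all 10 somite markers and Somite B for 8. The determination front cells passed for 7 of their own markers and 7 somite markers. The leading genes of Late PSM included Mesp1, Mesp2 and Dll3, which stand in the determination front list, and 7 PSM markers passed there. Cer1, which stands in the endoderm list, led the front cells, where 1 of 10 endoderm markers was above 2 times the other cells. The summed level of all 10 endoderm markers was 83.0 CPM there against 2558 CPM in endoderm, and their part in the front values was not tested.

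At 120 h, Ebf1, Ebf2 and Ebf3 were all read mainly in the paraxial mesoderm. Front and somite cells held 6818 of 7272 Ebf1 UMIs (93.8%), 1614 of 1752 Ebf2 UMIs (92.1%) and 1716 of 1809 Ebf3 UMIs (94.9%). In whole replicate 1, whole replicate 2, the anterior part and the posterior part, front cells held 12.8%, 7.98%, 8.32% and 14.3% of all UMIs. Somite cells held 33.3%, 26.3%, 90.9% and 0.735% in the same order. Values by fate below are for groups of at least 50 cells, with the anterior and posterior libraries summed into 1 pool wherever a mean over 3 pools is given. In such sums, fewer expressing cells and less RNA per cell cannot be told apart.

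Ebf1 was highest in determination front cells. Its level there was 110.0 CPM in whole replicate 1, 107 CPM in whole replicate 2, 64.8 CPM in the anterior part and 60.8 CPM in the posterior part. The whole libraries lay above both cut parts. Over the 3 pools the mean was 92.9 ± 27.1 CPM (SD, n = 3), and at most 15 Ebf1 UMIs were read in 1 front cell. In Somite A, the larger somite group, Ebf1 stood at 57.0, 77.8, 44.6 and 48.5 CPM in the same order of libraries, with a mean of 59.8 ± 16.7 CPM over pools. In Somite B, which carried Pax1 and Meox2 among its leading genes, it was 32.5 CPM in whole replicate 1, 91.4 CPM in whole replicate 2 and 43.4 CPM in the anterior part. Whole replicate 2 was the highest there, on 110 UMIs from 127 cells, and the mean was 55.8 ± 31.3 CPM. The ranges of these 3 fates over pools overlapped each other.

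Late PSM, the tissue just behind the front, came next for Ebf1. It read 17.6 CPM in whole replicate 1, 18.6 CPM in whole replicate 2 and 7.25 CPM in the posterior part, below every somite pool. The mean was 14.5 ± 6.27 CPM. The other fates with enough cells for a mean over 3 pools followed. They were Spinal cord B (3.15 ± 2.57 CPM), the neuromesodermal progenitor group NMPs C (1.58 ± 1.28 CPM) and Spinal cord A (1.56 ± 1.14 CPM). Neighbours among these last 3 overlapped. Among these neural and progenitor groups the largest value was 5.72 CPM, in Spinal cord B of whole replicate 2. The anterior library had only 21 Spinal cord A cells, with 4 Ebf1 UMIs, and they enter the means only through the cut pool. Early PSM and endoderm had enough cells in the posterior part only. Early PSM read 6.55 CPM there, on 5 Ebf1 UMIs from 58 cells, between Late PSM and Spinal cord B. Whole replicates 1 and 2 held only 6 and 30 Early PSM cells, with 3 and 8 Ebf1 UMIs. Endoderm read 2.64 CPM in the posterior part, on 7 UMIs from 183 cells, and 5 of these UMIs lay in 1 cell.

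Ebf2 reached its highest level in Somite A rather than at the front. Its Somite A level was 20.2 CPM in whole replicate 1, 15.0 CPM in whole replicate 2 and 16.3 CPM in the anterior part, and 4.73 CPM in the posterior part on only 4 UMIs from 68 cells. The mean over pools was 17.1 ± 2.74 CPM (SD, n = 3). Somite B followed at 9.43, 10.8 and 14.5 CPM in whole replicate 1, whole replicate 2 and the anterior part, just below the lowest Somite A pool. Determination front cells stood at 13.1, 10.8, 12.9 and 4.02 CPM in whole replicate 1, whole replicate 2, the anterior part and the posterior part. The posterior part was the low one. Somite B (11.6 ± 2.63 CPM) and the front (9.94 ± 3.67 CPM) overlapped over pools, and Late PSM lay below both at 3.10 ± 1.71 CPM. The spinal cord and NMPs C fates had means of 0.554 to 0.916 CPM, and the highest of them overlapped Late PSM. No Ebf2 UMI was read in 183 endoderm cells of the posterior part, where 3 UMIs would have been 1.13 CPM.

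Ebf3 had the same order as Ebf2 among the mesodermal fates. In Somite A it stood at 19.1 CPM in whole replicate 1, 25.4 CPM in whole replicate 2, 15.8 CPM in the anterior part and 8.28 CPM in the posterior part, the last on 7 UMIs. The mean over pools was 20.01 ± 4.98 CPM. Somite B was at 13.9, 18.3 and 16.7 CPM in whole replicate 1, whole replicate 2 and the anterior part, overlapping Somite A. Front cells were at 9.47, 17.4, 10.9 and 4.62 CPM in whole replicate 1, whole replicate 2, the anterior part and the posterior part. As for Ebf2, the posterior part was lowest. Late PSM lay below every front pool at 1.62 ± 0.513 CPM, and the neural fates and NMPs C had means of 0.421 to 0.781 CPM, with ranges that overlapped their neighbours.

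**Figure D1:**
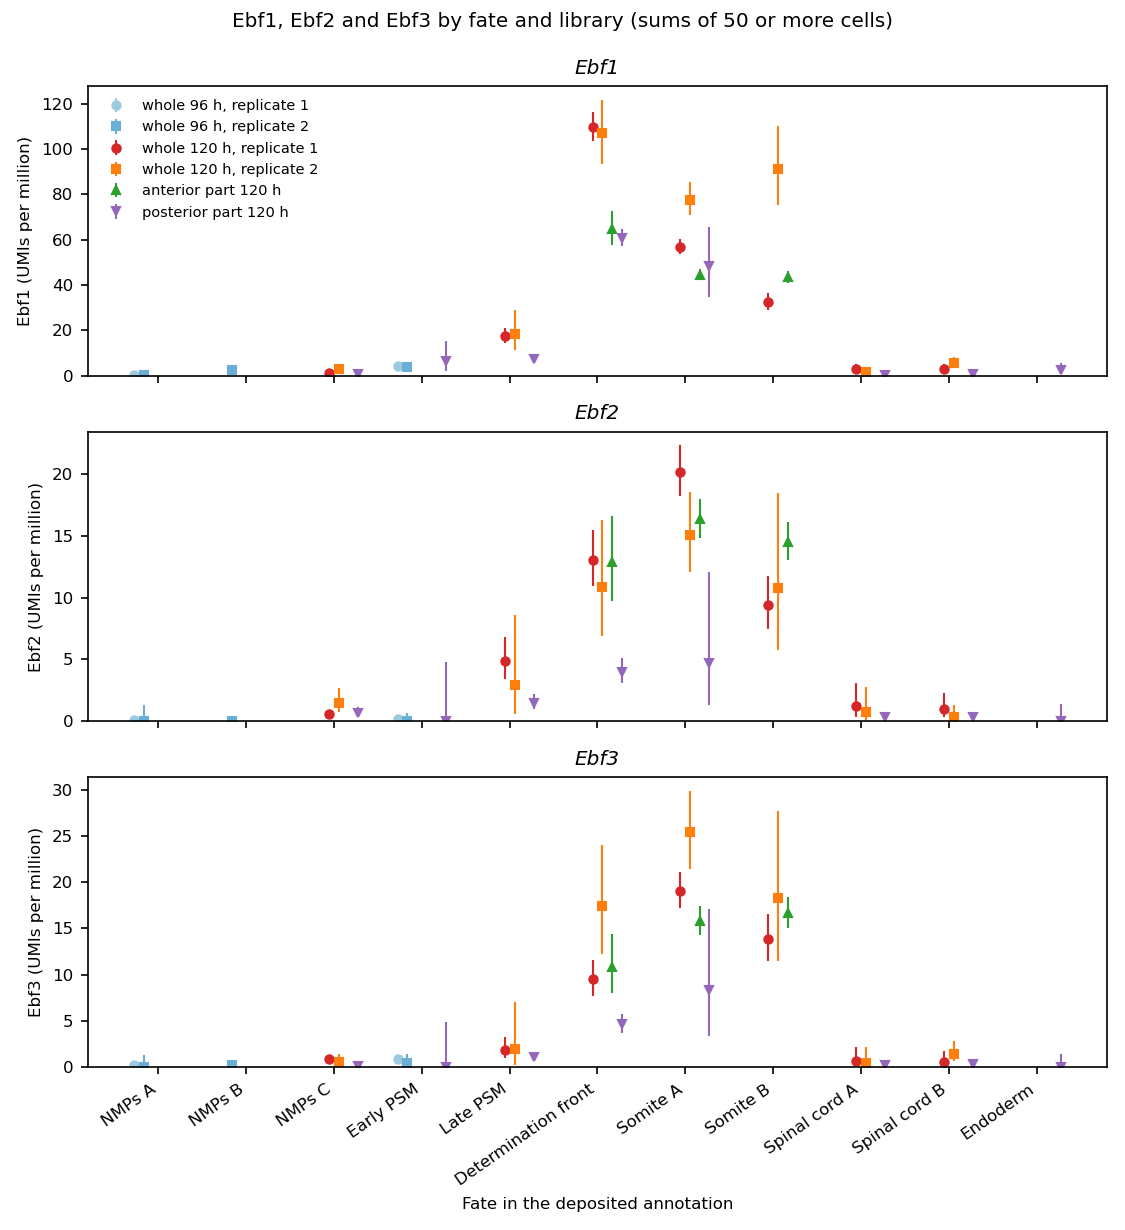
CPM of Ebf1, Ebf2 and Ebf3 (vertical axes, starting at 0) in each fate (horizontal axis) and library (symbols), for groups of at least 50 cells; bars are exact 95% Poisson intervals, which cover counting error only. Ebf1 has its highest points in determination front cells, at 110.0 and 107 CPM in the whole libraries, while Ebf2 and Ebf3 have theirs in Somite A, at 20.2 and 25.4 CPM.

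From the front to Somite A, the ratio lay below 1 for Ebf1 and above 1 for Ebf2 and Ebf3. The Somite A level of Ebf1 divided by its front level in the same library was 0.518 in whole replicate 1, 0.727 in whole replicate 2, 0.689 in the anterior part and 0.797 in the posterior part. All 4 lay below 1, and the posterior interval (0.568 to 1.09) reached past it. For Ebf2 the same ratios were 1.54, 1.39, 1.27 and 1.18, all above 1, but the interval excluded 1 in whole replicate 1 only (1.27 to 1.89). For Ebf3 they were 2.01, 1.46, 1.45 and 1.79, also all above 1, with a posterior interval (0.696 to 3.87, on 7 UMIs) that held 1. In Somite B, Ebf2 was not above the front in every library, at 9.43 against 13.1 CPM in whole replicate 1, 10.8 CPM in both fates of whole replicate 2, and 14.5 against 12.9 CPM in the anterior part. These intervals cover counting error only, and the ratios are a description because these levels chose the members.

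The step before, from Late PSM to the front, went up for every member. Ebf1 was 6.26 times higher at the front in whole replicate 1, 5.75 times in whole replicate 2 and 8.39 times in the posterior part. Ebf2 was 2.67, 3.69 and 2.71 times higher, with the middle value resting on 3 UMIs in Late PSM. Ebf3 was 5.06, 8.91 and 4.50 times higher, with only 2 Late PSM UMIs behind the value of whole replicate 2. Between the somite groups, Ebf2 was lower in Somite B in every library that held both, and Ebf1 and Ebf3 had ratios on either side of 1. The Somite B over Somite A ratio of Ebf1 was 0.570, 1.18 and 0.974 in whole replicate 1, whole replicate 2 and the anterior part, that of Ebf2 0.467, 0.719 and 0.889, and that of Ebf3 0.726, 0.720 and 1.06. The interval of Ebf2 excluded 1 in whole replicate 1 only.

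**Figure D2:**
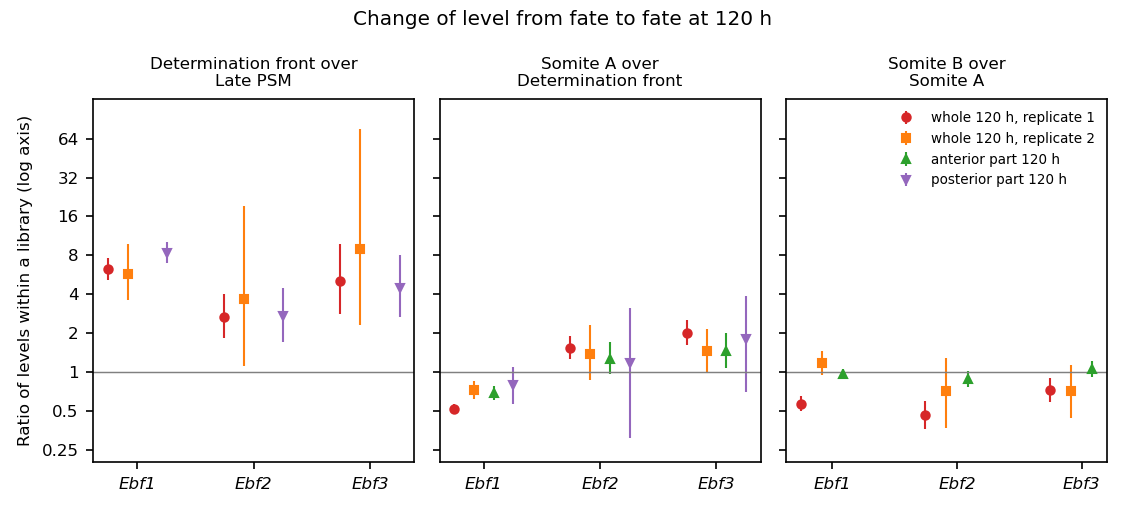
Ratio of a gene's level in one fate to its level in another within the same 120 h library (vertical log axis), for Ebf1, Ebf2 and Ebf3 (horizontal axis); symbols are libraries and bars are 95% counting intervals. From the front to Somite A the Ebf1 points lie below 1 (0.518 to 0.797) and the Ebf2 and Ebf3 points above 1 (1.18 to 2.01).

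Determination front cells were found in both cut parts, 268 in the anterior and 1140 in the posterior library, and Ebf2 and Ebf3 stood higher in the anterior ones. Ebf1 was at 64.8 CPM in anterior and 60.8 CPM in posterior front cells, a ratio of 1.06 (counting interval 0.931 to 1.21). Ebf2 was at 12.9 CPM on 58 UMIs in the anterior and 4.02 CPM on 67 UMIs in the posterior cells, a ratio of 3.2 (2.21 to 4.61). Ebf3 was at 10.9 CPM against 4.62 CPM, a ratio of 2.35 (1.61 to 3.41). Each part is 1 library, so this difference has no replicate check and the intervals compare those libraries only. Anterior front cells were deeper, with a median of 16237 UMIs against 12938. After every cell had been thinned to 5000 UMIs, a UMI of Ebf2 was found in 6.37% of anterior and 1.93% of posterior front cells, and the shares were 4.12% and 2.46% for Ebf3 and 27.7% and 23.9% for Ebf1.

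**Figure D3:**
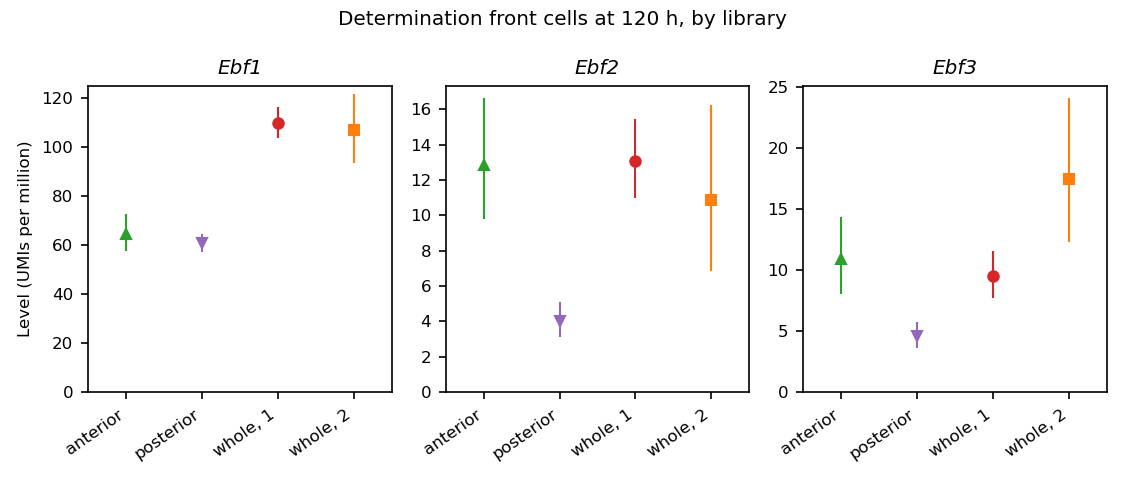
CPM of each member (vertical axes, starting at 0) in determination front cells of the 4 libraries at 120 h (horizontal axis); bars are exact 95% Poisson intervals. Ebf1 is close in both cut parts (64.8 and 60.8 CPM), whereas Ebf2 (12.9 and 4.02 CPM) and Ebf3 (10.9 and 4.62 CPM) are higher in the anterior one.

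At equal depth the members were read in a minority of the cells of every fate and library with at least 50 cells. Without thinning, a UMI of Ebf1 was present in 68.6% of front cells in whole replicate 1, 49.8% in whole replicate 2, 53.4% in the anterior part and 45.8% in the posterior part. At 5000 UMIs per cell the mean over pools was 32.5 ± 6.89% of front cells for Ebf1, 24.0 ± 6.29% of Somite A cells and 21.02 ± 8.97% of Somite B cells. Ebf2 was found in 7.23 ± 1.73% and Ebf3 in 9.13 ± 1.83% of Somite A cells at that depth. For comparison, Spinal cord A, a fate with low levels of all members, had 1.32 ± 1.11% for Ebf1, 0.483 ± 0.667% for Ebf2 and 0.491 ± 0.305% for Ebf3 at the same depth. Whether these UMIs were free RNA was not tested. Its leading genes held no spinal cord marker, and 6 of 10 NMP and 4 of 10 spinal cord markers were above 2 times the other cells there. Its median of unthinned UMIs was 14184, 8763 and 13867 in whole replicate 1, whole replicate 2 and the posterior part. Of the 26968 cells, 307 had fewer than 5000 UMIs and were left out of thinned values, 234 of them in whole replicate 2 at 120 h. The share in front cells by called cell cycle phase had no common order for Ebf1, with 37.2% in G1, 32.8% in S and 38.0% in G2M cells of whole replicate 1, 38.1%, 32.2% and 39.4% in whole replicate 2, and 26.1%, 26.8% and 21.9% in the cut pool. In Somite A the G2M share of Ebf1 was the highest of the 3 phases in every pool, at 28.0%, 31.8% and 22.0%. In whole replicate 2 the G1 share was close to it, at 30.8%. In Somite B the G2M share was also the highest in every pool, at 17.1%, 35.1% and 20.1%. The whole replicate 2 value there rested on only 57 G2M cells, beside a G1 share of 31.6% on 19 cells. Free RNA can enter such calls.

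Cells in which different members were read together were rare. In thinned front cells, 231 of 615 cells of whole replicate 1 had 1 member, 28 had 2 and none had all 3. These counts were 77, 9 and 1 of 195 cells in whole replicate 2 and 378, 23 and 0 of 1407 cells in the cut pool. In Somite A, 48 of 1174 cells of whole replicate 1, 32 of 576 of whole replicate 2 and 47 of 1945 of the cut pool had 2 members, and 1 cell in each had all 3. Among front cells, Ebf2 was read in 5.86% of cells with Ebf1 and 4.83% of cells without in whole replicate 1, in 8.33% and 4.07% in whole replicate 2, and in 3.18% and 2.64% in the cut pool. That pair had the higher share in the cells with Ebf1 in all 3 pools, on 13, 6 and 11 cells with both, but other pairs and fates did not keep 1 direction. Ebf3 was read in 5.86% of front cells with Ebf1 against 5.09% without in whole replicate 1, 5.56% against 8.94% in whole replicate 2, and 3.18% against 2.64% in the cut pool. In Somite A, Ebf2 was read in 9.77%, 7.26% and 4.58% of cells with Ebf1 in whole replicate 1, whole replicate 2 and the cut pool, against 8.93%, 5.04% and 7.37% of cells without. Ebf3 was read in 4.67%, 12.1% and 4.51% of Somite A cells with Ebf2 against 9.18%, 11.05% and 7.73% without, lower in 2 of 3 pools.

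Whether any gene went with a member among cells of the same fate was tested by splitting cells on a UMI of that member after thinning, summing each side per pool and fitting edgeR's quasi-likelihood test with the pool as a block (Benjamini-Hochberg adjusted p under 0.05). Ebf1 was split in determination front cells (640 cells with and 1577 without), and 3 genes were higher in the cells with Ebf1, or 0.0348% of the 8615 genes tested, with 0 lower. Meg3, a maternally expressed long noncoding RNA, was at 1220, 892 and 1353 CPM in the cells with Ebf1 of whole replicate 1, whole replicate 2 and the cut pool, against 938, 698 and 1076 CPM in the cells without. It was higher in all 3 pools, by 0.35 ± 0.04 on the log2 scale (SE, adjusted p = 5.21e-13 by edgeR). Malat1, a nuclear long noncoding RNA, was at 5842, 8381 and 4188 CPM against 5317, 7608 and 3913 CPM, higher in all 3 pools by 0.12 ± 0.02 (adjusted p = 0.00304 by edgeR). This small difference missed the threshold without whole replicate 1 (0.11) and without the cut pool (0.13).

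Hes5, a Notch-responsive repressor of the neural progenitor list, was the other gene called. It was at 59.5, 22.2 and 87.3 CPM in front cells with Ebf1 of whole replicate 1, whole replicate 2 and the cut pool, against 49.4, 34.1 and 42.0 CPM in the cells without. The difference was 0.72 ± 0.14 on the log2 scale (adjusted p = 0.00304 by edgeR) and rested on the cut pool, since it was higher in 2 of 3 pools and without the cut pool came to 0.13, past no threshold. With DESeq2 only 1 gene was called, without the pool block 0, and without thinning 127. Both sides of the split were alike in the median share of mitochondrial UMIs, at 2.45% with and 2.47% without Ebf1 in whole replicate 1. Median depth before thinning was 10891 UMIs with and 9750 without Ebf1 in whole replicate 2, and slightly lower with it in the other pools. In the cut pool, cells of the anterior part were 21.4% with and 18.2% without Ebf1. Unadjusted, 471 genes had p under 0.05. No other gene of the 10 lists was called in any split. Uncx, a homeobox factor of somites, came closest, at 143 ± 66.6 CPM with and 98.8 ± 56.5 CPM without Ebf1 (SD, n = 3) and higher with it in all 3 pools, a difference of 0.43 ± 0.10 (adjusted p = 0.0525 by edgeR).

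The other members did not pass in this split. Ebf2 was 0.51 ± 0.32 higher in front cells with Ebf1 (adjusted p = 0.985 by edgeR), on 17, 6 and 12 UMIs in the 3 pools, and Ebf3 differed by 0.13 ± 0.32 (adjusted p = 0.999 by edgeR). In Somite A, cells with Ebf2 (273, against 3422 without) and cells with Ebf3 (313 against 3382) had 0 genes called in either direction (0% of 9297 and of 9205 genes tested by edgeR). In simulated data, these fits called 42% (Ebf2) and 50.5% (Ebf3) of genes changed by 1 on the log2 scale, so such differences could be missed. DESeq2 called 0 in both as well, and 437 and 592 genes had an unadjusted p under 0.05. Ebf3 was 0.64 ± 0.36 lower on the log2 scale in cells with Ebf2 (adjusted p = 0.993 by edgeR), on 5, 4 and 7 UMIs. Ebf1 differed by -0.11 ± 0.19 in those cells and by -0.12 ± 0.16 in cells with Ebf3. Without thinning, Ebf2 passed with Ebf1 (0.93 on the log2 scale), and the signs of all the other pairs turned.

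Over time, every member was higher in the whole stembryo libraries at 120 h than at 96 h. Replicates 1 and 2 had 321 and 67 Ebf1 UMIs at the earlier time and 2700 and 872 at the later one. On TMM-normalized totals this was 3.01 and 2.65 CPM against 34.0 and 29.9 CPM, or 2.83 ± 0.256 against 31.9 ± 2.86 CPM (SD, n = 2), a log2 change of 3.49 ± 0.15 (SE). For Ebf2 there were 16 and 0 UMIs in the earlier libraries against 660 and 142 in the later ones, or 0.075 ± 0.106 against 6.59 ± 2.42 CPM, a log2 change of 5.93 ± 0.79. For Ebf3 there were 63 and 7 UMIs against 621 and 221, or 0.434 ± 0.222 against 7.70 ± 0.162 CPM, a log2 change of 4.04 ± 0.39. The libraries of the 2 times did not overlap for any member. No p is given, since these levels chose the members.

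**Figure D4:**
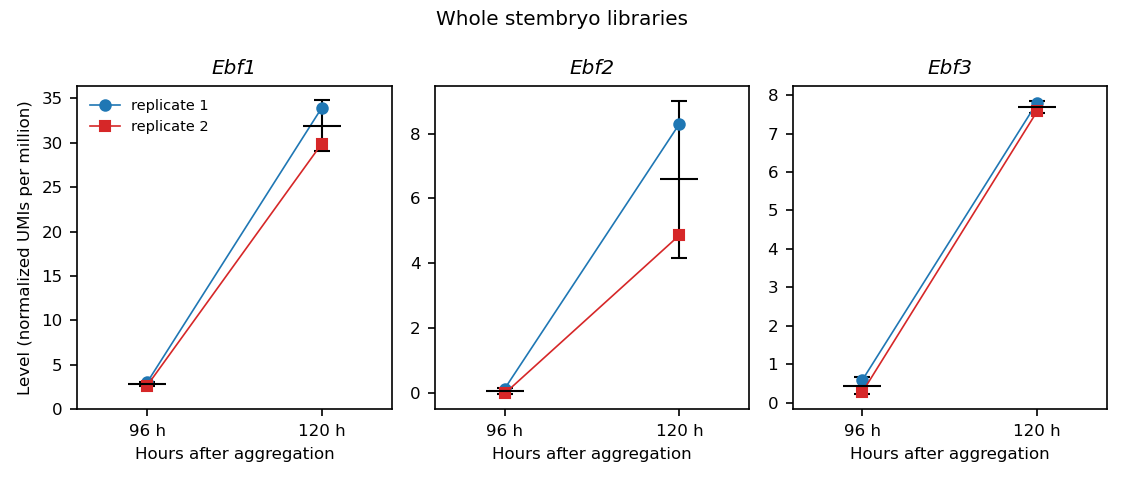
Normalized CPM of each member (vertical axes) in whole stembryo libraries at 96 h and 120 h (horizontal axis); points are libraries, joined by replicate number, and black marks are the mean with its SD (n = 2). Every 120 h library lies above both 96 h libraries, with Ebf1 at 34.0 and 29.9 CPM against 3.01 and 2.65 CPM.

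The share of front and somite cells moved with these changes. At 96 h, front cells made up 0.547% and somite cells 0.0203% of whole replicate 1, and replicate 2 had no front cells and 0.0755% somite cells. At 120 h front cells were 12.6% and 7.72% and somite cells 34.7% and 28.7%. The part of this shift in the whole-library changes was not tested. Levels within a fate could be set side by side in few cases. Late PSM held 49 cells in whole replicate 1 at 96 h, with Ebf1 at 20.2 CPM, beside 17.6 and 18.6 CPM in the whole libraries at 120 h. The 27 front cells of the same 96 h library held 67 Ebf1 UMIs, 20.9% of all Ebf1 UMIs of that library, at 117 CPM beside 110.0 and 107 CPM at 120 h. Of these 67 UMIs, 40 came from 5 cells and 13 from 1 cell.

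Ebf1 was already read in the presomitic mesoderm of 96 h stembryos. In Early PSM it was at 4.38 CPM on 211 UMIs in replicate 1 and 4.01 CPM on 21 UMIs in replicate 2, against 0.364 and 0.349 CPM in NMPs A of the same libraries. Replicate by replicate this was 12.0 and 11.5 times higher, the second on 1 UMI in NMPs A with a counting interval of 1.85 to 475. Ebf2 had 8 and 0 UMIs in the same Early PSM cells and Ebf3 40 and 2. NMPs B, found almost only in replicate 2, had Ebf1 at 2.35 CPM, on 36 UMIs spread over 34 of 1632 cells. The pluripotent group of that library had 9 Ebf1 UMIs in 35 cells, of which 8 lay in 1 cell.

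Genes whose levels followed a member were ranked by Pearson's r of log2(CPM + 1) over 30 fate by library sums, among 7723 genes, as a description in which sums of a library share its depth and batch. Among the genes most like Ebf1 were Ntn1 (r = 0.956), a guidance molecule, Tcf15 (0.955), a basic helix-loop-helix factor of forming somites, Fstl1 (0.953) and Ptges (0.950). Ebf2 was most like Ebf3 (0.959), then Uncx (0.948), which marks the posterior side of each somite, Wnt16 (0.947), Lhfpl2 (0.938) and Ltbp1 (0.938). Ebf3 was most like Depdc7 (0.974), Wnt16 (0.967), Bmp3 (0.967) and Itih5 (0.967), with Ebf2 next at 0.959. Ebf1 came lower, with r = 0.923 to Ebf3 and 0.903 to Ebf2.

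For the genes around the family, 10 lists were followed between the times in whole libraries with the same edgeR test. Of 18114 genes tested, 105 were higher (0.58%) and 48 lower (0.265%) at 120 h. Without adjustment, 2739 of these 18114 genes had p under 0.05 by edgeR. The replicate numbers mark shared batches, and with the replicate as a block these shares became 8.89% higher (1611 genes) and 8.15% lower (1477 genes). Without 1 library the number called was 399 (96 h replicate 1 left out), 376 (96 h replicate 2) or 100 (120 h replicate 1). The median log2 change was 0.02 over all genes tested. Somite cells were 0.0203% and 0.0755% of the whole libraries at 96 h and 34.7% and 28.7% at 120 h. The part of such shifts between fates in the changes of the lists was not tested.

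In the list of the early B-cell factor family and its partners, 0 of 10 genes tested passed by edgeR. Of them, 6 had an unadjusted p under 0.05, 6 were higher with the block and 5 by DESeq2. The median log2 change was 0.71. Ebf4 was at 0.878 ± 0.349 and 1.17 ± 0.443 CPM. Tcf4 and Tcf3, E proteins that bind DNA beside Ebf1 in lymphocytes, went from 165 ± 14.6 to 291 ± 19.7 CPM (log2 change 0.82 ± 0.15, adjusted p = 0.088 by edgeR and 0.00212 with the block) and from 145 ± 24.5 to 157 ± 17.5 CPM (0.11 ± 0.16, adjusted p = 0.848 by edgeR). Runx1, a partner of Ebf1 in blood, was at 0.577 ± 0.258 and 3.37 ± 0.735 CPM (2.48 ± 0.42, adjusted p = 0.0821 by edgeR and 0.00116 with the block).

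Genes that Ebf1 controls in B cells were hardly read. Of 12, 5 were in the table and 1 was abundant enough to test, Vpreb1, at 0.889 ± 0.532 and 1.16 ± 0.518 CPM (0.35 ± 0.58, adjusted p = 0.877 by edgeR). DESeq2 called 0 of this list. Pax5 had 3 and 7 UMIs at the earlier time and 0 in both libraries at the later one. Of the fat and bone genes, 4 of 10 could be tested and 0 passed by edgeR or DESeq2, 1 having an unadjusted p under 0.05, with a median of -0.44. Cebpb was at 4.76 ± 0.365 and 3.73 ± 1.54 CPM (-0.34 ± 0.33, adjusted p = 0.736 by edgeR), and Prdm16 had 8 and 0 UMIs against 32 and 26 (3.56 ± 1.01, adjusted p = 0.196 by edgeR and 0.0318 with the block).

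Genes of somite derivatives were among those that rose. In the sclerotome list, the source of vertebrae and ribs, 3 of 13 genes tested were higher and 0 lower (12 and 0 with the block), with a median log2 change of 2.04. Pax1, a sclerotome regulator, had 0 UMIs in both 96 h libraries and 903 and 236 at 120 h, at least 494-fold higher against a floor of 3 UMIs over the group (adjusted p = 0.0213 by edgeR). Cdh11, a mesenchymal cadherin, rose by 3.09 ± 0.18 on the log2 scale (adjusted p = 0.0211 by edgeR). Twist1, a mesenchymal factor, rose by 2.04 ± 0.24 (adjusted p = 0.0464 by edgeR), a call that was lost without 120 h replicate 1 and without normalization factors. In the dermomyotome and muscle list 6 of 12 were higher and 0 lower (9 and 0 with the block), with a median of 2.72. They included Meox2 (6.46 ± 0.55, adjusted p = 0.026), Pax3 (4.73 ± 0.33, adjusted p = 0.0211) and Meox1 (4.47 ± 0.40, adjusted p = 0.0278), all by edgeR and all regulators of somite development.

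Of 14 determination front genes tested, 2 were higher and 0 lower, and with the block 5 were higher and 6 lower, with a median of -0.15. Uncx rose from 0.394 ± 0.278 to 92.4 ± 41.0 CPM (7.60 ± 0.55, adjusted p = 0.0213 by edgeR) and Tcf15 from 13.1 ± 5.14 to 372 ± 125 CPM (4.81 ± 0.40, adjusted p = 0.0252 by edgeR).

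Of 14 differentiating neuron genes tested, 0 passed by edgeR (4 at an unadjusted p under 0.05), 3 by DESeq2 and 4 with the block, all 4 of them lower, with a median of -0.67. Gap43, a growth cone protein, was at 43.0 ± 15.4 and 16.4 ± 1.64 CPM (adjusted p = 0.108 by edgeR, 0.00416 with the block) and Stmn2, a microtubule regulator of neurons, at 53.2 ± 34.7 and 2.74 ± 1.65 CPM (adjusted p = 0.0778 by edgeR, 2.58e-06 with the block). Stmn2 stood among the leading genes of NMPs B. Of 14 neural progenitor genes 1 was lower, Msx1, a dorsal homeobox factor (-1.95 ± 0.18, adjusted p = 0.0278 by edgeR, a call lost without normalization factors), and with the block 8 were higher and 1 lower, with a median of 1.41.

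The crest, endothelium and blood lists had few genes to test. Of the neural crest list 4 of 8 could be tested, with a median of 0.27, and Ets1 rose (3.84 ± 0.40, adjusted p = 0.0361 by edgeR, a call lost without normalization factors). Ets1 is also used outside the crest and stood among the leading genes of Somite A, while Sox10, a crest regulator, had 7 and 0 UMIs at the earlier time and 3 and 0 at the later. Of the endothelium and blood list 4 of 12 could be tested and 0 passed by edgeR (1 at an unadjusted p under 0.05, 1 by DESeq2, and 1, Runx1, with the block), with a median of 0.93. Etv2, an endothelial regulator, was at 10.5 ± 0.416 and 8.32 ± 2.02 CPM (-0.34 ± 0.21, adjusted p = 0.539 by edgeR).

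**Figure D5:**
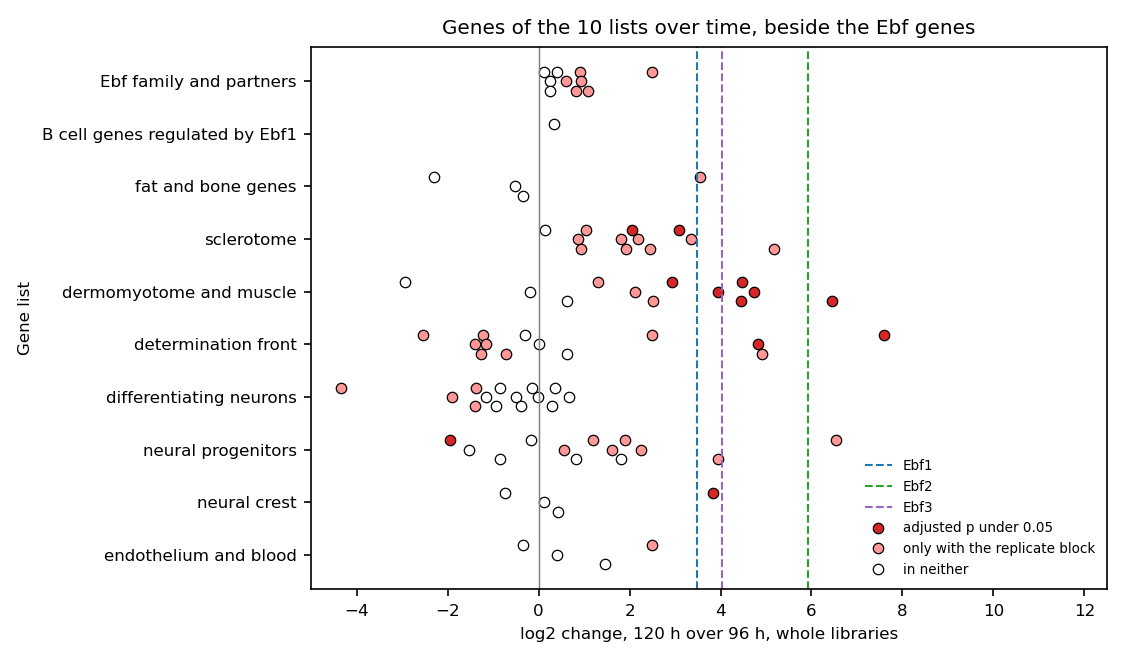
The log2 change from 96 h to 120 h in whole libraries (horizontal axis) of the tested genes of 10 lists (vertical axis), filled where the adjusted p was under 0.05 and pale where it was so only with the replicate block; 3 genes with no UMI at 96 h (Pax1, Ripply1 and Olig2) are left out, and dashed lines mark Ebf1, Ebf2 and Ebf3 at 3.49, 5.93 and 4.04. The called somite genes Meox2 (6.46) and Uncx (7.60) lie to the right of the line of Ebf2. The list of the family and its partners lies to the left of all 3 lines. The part of the shift between fates in these changes was not tested.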

How the data were processed

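Per the labels and the study's methods, the authors mapped 10x Genomics reads to mm10 with Cell Ranger 6.0 and filtered cells with Seurat 4.0.2 on genes, UMIs and mitochondrial share; doublets were treated only by an upper UMI limit. The deposited table holds raw UMI counts per gene and cell, and the deposited annotation holds fates, batches and phases as well as the percent of mitochondrial UMIs. Cell totals in both agreed for all 26968 cells. Members and gene lists were chosen with earlier results of these data known.

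UMIs were summed per fate and library or pool. Changes between whole libraries, and splits of cells on a member within a fate, were fitted with edgeR 4.0.16 (quasi-likelihood, TMM, its default filter on low counts, adjusted p under 0.05), with DESeq2 1.42.0 as an alternative, and tested on simulated data. Splits thinned each cell to 5000 UMIs and used the fate with the highest level that had at least 30 cells on each side in all 3 pools. Intervals are exact 95% ones for counts and Wilson ones for shares, and cover counting error only. Same-numbered whole libraries deviated together (r = 0.659 over 18114 genes) and share a batch, so blocked values are given where they changed a call. The labels do not say whether the libraries came from separate cultures, so p-values over time measure only the spread between these libraries, which may be technical. Those of the splits rest mainly on a spread that edgeR shares across genes, and less on how a gene's own difference varied over the 3 pools. Hes5 was called although it was higher in only 2 of 3 pools. Named genes were the members, the other Ebf genes and called genes of at least 50 CPM in the splits, the 5 genes most like each member (1 of them is not reported here), and per list up to 3 called genes in each direction or, with none called, the 2 with the highest level; Pax5, Sox10 and Ebf4 were added after their values were seen.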

Additional observations from a re-analysis of the deposited data

How the results depend on the processing

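The number of genes changed over time was 153; it was 1165 with DESeq2, 1199 with no filter on low counts, 3088 with the replicate block, and 100 to 399 with 1 library left out, where the lone library is assumed to vary like the other time. The log2 change of Ebf1 stayed within its replicate spread under every alternative run; with 1 library left out that of Ebf2 ran from 5.45 to 11.2 and that of Ebf3 from 3.71 to 4.77. The value of 11.2 has no measured size, since 96 h replicate 2 alone had 0 Ebf2 UMIs, and against a floor of 3 UMIs there the change was at least 59.6-fold. The number of genes going with Ebf1 (3) became 127 without thinning, 1 at 3000 UMIs per cell, 1 with DESeq2, 0 with no replicate block, and 3 to 5 with 1 pool left out (5 without whole replicate 2). With Ebf2 (0) it became 88 without thinning and 3 with no filter; with Ebf3 (0) it became 127 without thinning, 3 at 3000 UMIs, 6 without normalization factors, 96 with no filter, 2 without the cells of highest UMI counts, and 0 to 3 with 1 pool left out (3 without whole replicate 1). The cause was not tested. Without thinning, Ebf2 passed with Ebf1 at 0.93 on the log2 scale. Differences between members that turned sign, none of them past the threshold, were Ebf3 with Ebf1 (-0.030 without thinning, and -0.017 to 0.28 with 1 pool left out, the lowest without whole replicate 1), Ebf3 with Ebf2 (0.21 without thinning, 0.90 at 3000 UMIs), Ebf1 with Ebf2 (0.14 without thinning, 0.44 at 3000 UMIs, and -0.32 to 0.20 with 1 pool left out, the highest without the cut pool), Ebf2 with Ebf3 (0.18 without thinning, 0.88 at 3000 UMIs) and Ebf1 with Ebf3 (0.055 without thinning). Over time, with 1 library left out, Tcf3 ran from -0.042 (without 96 h replicate 2) to 0.28, Vpreb1 from -0.19 (without 120 h replicate 1; -0.10 without 96 h replicate 2) to 1.17 and Cebpb from -0.83 to 0.0072 (without 120 h replicate 2), none called. Leaving out normalization factors ended the calls of Twist1, Msx1 and Ets1. The correlations moved by under 0.05 with at least 100 cells per sum (28 sums) or only the 120 h libraries (25 sums).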
